A study of Mus musculus with 2 samples.

Results

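Hepatocyte barcodes with very little mitochondrial RNA were examined in livers of mice with and without miR-33 in hepatocytes. A barcode marks the RNA caught in 1 droplet, and a unique molecular identifier (UMI) marks 1 captured transcript. The members had at least 5000 UMIs, at least 1% of UMIs from Alb (albumin), fewer than 3 detected genes of 15 markers of other liver cells, and at most 2.5% of UMIs from the 13 mitochondrially encoded mRNAs. There were 485 such barcodes among the 50078 deposited, 401 in the wild-type (WT) library and 84 in the hepatocyte knockout (HKO) library. They were set against 2029 comparison barcodes chosen in the same way but with a mitochondrial share above 2.5% and up to 25%, of which 1062 were WT and 967 HKO.

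WT and HKO littermates received a fatty diet lacking choline (CD-HFD) from 8 weeks of age for 6 months. HKO mice carry loxP-flanked miR-33 alleles and Cre under the albumin promoter, so the deletion is aimed at hepatocytes. The title of the HKO library names the knockout (miR-33 HKO), while its genotype label names only the Cre (AlbCRE). Each library came from 3 pooled livers digested with collagenase, and hepatocytes were mixed 1 to 1 with sorted non-parenchymal cells before droplet capture. There was 1 library of each genotype, so genotype, pool and library cannot be told apart and no difference was tested. All intervals below are 95% intervals that cover counting error only.

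Mitochondria transcribe their own small genome, and the resulting mRNAs encode core subunits of the respiratory chain, while most respiratory chain subunits are encoded in the nucleus and imported. Hepatocytes are rich in mitochondria. A droplet with little mitochondrial RNA can hold a bare nucleus, cytoplasm that lost its organelles, or a cell with few mitochondrial transcripts. A bare nucleus keeps the long noncoding RNAs Malat1, found in nuclear speckles, and Neat1, the scaffold of paraspeckles, together with unspliced transcripts that are richest for long genes. Malat1 (ENSMUSG00000092341, chr19:5795690-5802672, minus strand) and Neat1 (ENSMUSG00000092274, chr19:5824708-5845478, minus strand) are neighbouring lincRNA genes in the GRCm38 annotation used here.

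The RNA removed in the HKO library was the microRNA below, which represses Abca1, Cpt1a, Crot and other lipid genes. It is shown because its targets are followed in the members. It lies on chr15:82198127-82198147, plus strand, in build GRCm38.p6 (RefSeq), and the capitals mark its seed, bases 2 to 8.
mmu-miR-33-5p: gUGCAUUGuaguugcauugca
Poly(A)-primed libraries do not capture the mature microRNA, so its loss was not checked in these data.

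Low-mitochondrial barcodes made up a larger share of hepatocyte barcodes in WT than in HKO. They were 27.4% of the members and comparison barcodes together in WT (25.1 to 29.8%, Clopper-Pearson) and 7.99% in HKO (6.42 to 9.80%). The share moved with depth, from 30.3% in WT and 15.4% in HKO under 10000 UMIs to 25.8% and 3.51% at 10000 or more. A further 661 WT and 402 HKO barcodes passed the same rule with a mitochondrial share above 25%. With these included, members were 18.9% of hepatocyte barcodes in WT (17.2 to 20.6%) and 5.78% in HKO (4.64 to 7.11%). Most comparison barcodes lay around 10 to 25%, with 627 of 1062 in WT and 715 of 967 in HKO. In WT the low end held many barcodes between 0.5 and 2.5%, whereas in HKO only 84 barcodes lay below the limit.

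**Figure D1:**
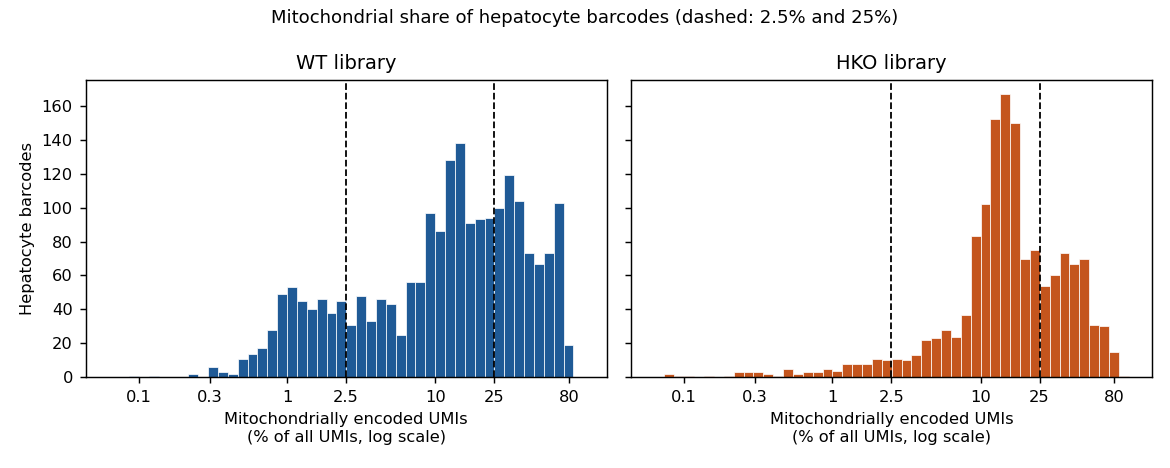
Number of hepatocyte barcodes (vertical axis) by mitochondrially encoded UMIs as a percentage of all UMIs (horizontal axis, log scale) in the WT and HKO libraries; dashed lines mark 2.5% and 25%. WT has 401 barcodes left of the first line and HKO has 84.

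The mitochondrial share chose the members and is given here as a description. Its median was 1.22% in WT members and 1.20% in HKO members, against 11.9% and 13.3% in the comparison barcodes. In absolute terms this was a median of 173 mitochondrial UMIs per WT member against 2169 per comparison barcode, and 97.5 against 1703 in HKO. The 13 mRNAs were low together, summing to 11155 UMIs per 1000000 other UMIs (CPM) in WT members against 146758 in comparison barcodes, and 10742 against 153578 in HKO. The 13 genes are left out of the CPM denominator throughout. A background was taken from droplets within 25% of the commonest depth of each library, 2564 UMIs in WT and 788 UMIs in HKO. They were chosen by depth alone, and whether they hold only free RNA was not tested. Their median mitochondrial share was 3.02% in WT and 6.47% in HKO, so the median member lay below that level too.

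Barcodes next to the limit are given without a test. Just inside the limit, between 2 and 2.5%, lay 63 WT and 14 HKO barcodes with 32979 and 41821 CPM of nuclear respiratory chain and ATP synthase mRNAs. Just outside, up to 3%, lay 41 and 12 barcodes with 38197 and 52997 CPM of the same mRNAs. Malat1 summed to 12588 CPM inside and 4354 CPM outside in WT, and to 29513 and 453 CPM in HKO.

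Members were shallower than the comparison barcodes. The median depth was 14931 UMIs in WT members against 18324, and 7652 in HKO members against 12764. In WT this order turned when members were limited to 1.5% mitochondrial RNA, with a ratio of medians of 1.31 in place of 0.815, or when comparison barcodes were limited to 10%, with 1.73. HKO members were mostly small, with 61 of 84 under 10000 UMIs, compared with 161 of 401 in WT. After each barcode was thinned to 5000 UMIs without mitochondrial genes, WT members held a median of 1856 genes against 1945, and HKO members 1726 against 1881. Thinning left out 8 WT and 2 HKO members. Before thinning the medians were 3743 genes against 3911 in WT and 2215 against 3045 in HKO.

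Hepatocyte markers were checked in the members. All 12 hepatocyte markers other than Alb were detected, and they summed to 62984 CPM in WT members against 58996 in comparison barcodes, and to 54684 against 56835 in HKO. Their median log2 ratio was -0.22 in WT and -0.30 in HKO, with 3 of 12 above 0 in each library. In the commonest-depth droplets the same markers summed to 54632 CPM in WT and 48556 CPM in HKO, so detection and sum do not set the members apart from those droplets. The 3 were Ttr, which encodes the carrier protein transthyretin, and the apolipoprotein genes Apoa1 and Apoc3. Ttr measured 17623 CPM in WT members against 12441, a ratio of 1.42 (1.41 to 1.43), and 17074 against 13145 in HKO, a ratio of 1.30 (1.28 to 1.32). Apob, the large scaffold protein of very-low-density lipoprotein, was lower, with 2133 CPM against 3475 in WT (ratio 0.614, 0.604 to 0.624) and 1457 against 3034 in HKO (ratio 0.480, 0.453 to 0.509). Cps1, the urea cycle enzyme of the mitochondrial matrix, was also lower, at ratios of 0.775 and 0.549. Alb itself, which the rule used, measured 35039 CPM against 45242 in WT and 22734 against 37633 in HKO.

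Markers of other liver cells were not all low. The 15 genes that the rule limits summed to 56.8 CPM in WT members and 30 CPM in HKO members. Among markers that the rule did not use, the 7 macrophage genes summed to 35.4 CPM in WT members against 14.8, and to 15 against 17.1 in HKO. The 8 T and NK cell genes summed to 47.5 against 26.3 CPM in WT and 21.2 against 13.8 in HKO, and 1 WT member held 50.1% of the WT members' UMIs. Without the top barcode of each class these sums were 23.7 against 21.1 CPM and 15.2 against 11.7 CPM. The 7 endothelial genes summed to 14.9 against 15.9 CPM and 2.5 against 12.3 CPM, with 6 of the 7 at 0 in HKO members. The 7 stellate genes summed to 7.40 against 4.07 CPM and 16.2 against 4.56 CPM. In HKO members the macrophage, T and NK, endothelial and stellate sums rested on only 12, 17, 2 and 13 UMIs. The 5 red cell genes stood out in WT, with 3636 CPM in members against 335, while HKO had 73.7 against 103. The 4 neutrophil genes summed to 330 CPM against 10.6 in HKO, but 1 member held 99.6% of these UMIs, and without the top barcode of each class the sums were 1.26 and 1.08 CPM. WT had 3.58 against 7.60 CPM. The 5 B cell genes summed to 68.1 against 38.3 CPM in WT and 16.2 against 297 CPM in HKO, where 1 comparison barcode held 86.9% and the sums without the top barcodes were 11.3 and 39.0 CPM. The B cell sum of HKO members rested on 13 UMIs. The 5 cholangiocyte genes summed to 369 against 430 CPM and 190 against 299 CPM. Barcodes with 3 or more of the 15 markers were left out by the rule, and in WT these were 22.6% of low-mitochondrial candidates against 15.2% of comparison candidates (7.69% against 5.57% in HKO). The part of these cells in the results was not tested.

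The first question was whether the members look like bare nuclei. Their summed Malat1 was higher than in comparison barcodes, at 5643 CPM against 5192 in WT (ratio 1.09, 1.08 to 1.10) and 9141 against 3417 in HKO (ratio 2.68, 2.61 to 2.74). Neat1 measured 361 CPM against 453 in WT (ratio 0.797, 0.765 to 0.830) and 431 against 480 in HKO (ratio 0.899, 0.804 to 1.00). These directions depended on the limits in both libraries. The HKO Neat1 ratio was 1.09 against comparison barcodes up to 10% and 1.03 with mitochondrial UMIs in the denominator. With members up to 1.5% mitochondrial RNA the WT Malat1 ratio was 0.796, and the WT Neat1 ratio was 1.12 in barcodes with none of the 15 markers and 1.03 in barcodes under 10000 UMIs. Barcodes with 25 to 50% mitochondrial RNA had more of both, with 10457 CPM of Malat1 and 1103 of Neat1 in WT and 12369 and 1877 CPM in HKO. Kcnq1ot1 and Airn, further nuclear noncoding RNAs, had ratios of 0.877 and 0.640 in WT and 0.950 and 0.516 in HKO. The HKO member values of these 2 genes rested on 18 and 9 UMIs.

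The Malat1 sum was carried by few barcodes. The median member held less Malat1 than the median comparison barcode, with 2084 CPM against 2346 in WT and 563 against 1017 in HKO. In HKO, 5 members held 62.3% of all Malat1 UMIs of the 84, and in WT the top 5 held 21.3%. The 5th to 95th percentile ran from 236 to 32976 CPM in WT members and from 0 to 65152 CPM in HKO members. In the comparison barcodes it ran from 309 to 21625 CPM and from 123 to 14826 CPM, so the members spread wider at both ends.

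Barcodes with at least 20000 Malat1 CPM were therefore described apart, a limit chosen after the values were seen. It took in 35 of 401 WT members (8.73%, 6.15 to 11.9%) and 63 of 1062 comparison barcodes (5.93%, 4.59 to 7.53%). In HKO it took in 11 of 84 members (13.1%, 6.72 to 22.2%) and 34 of 967 comparison barcodes (3.52%, 2.45 to 4.88%). In WT the limit lay within a filled range of levels and in HKO in a gap. Within the next lower range, down to 10000 CPM, lay 27 WT members and 0 HKO members, and 22 and 3 lay between 20000 and 40000 CPM.

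These Malat1-high members also differed in RNA that had not chosen them. Neat1 reached 2189 CPM in WT and 2342 CPM in HKO, against 78.1 and 52.0 CPM in members with under 1000 Malat1 CPM. The summed mRNAs of 20 liver transcription factors stood at 7236 and 8273 CPM against 2091 and 1973 CPM. Conversely, nuclear-encoded respiratory chain and ATP synthase mRNAs summed to 12892 and 12966 CPM against 54739 and 62962 CPM, and cytosolic ribosomal protein mRNAs to 15732 and 14850 CPM against 64315 and 99621 CPM. Their mitochondrial shares were not the lowest, with medians of 1.43% and 1.83%, whereas members with under 1000 Malat1 CPM had medians of 1.06% and 0.842%. Between these 2 ranges lay 266 WT and 21 HKO members, with 279 and 390 CPM of Neat1 and 2856 and 3092 CPM of the transcription factors. Their respiratory chain and ATP synthase mRNAs summed to 44547 and 57314 CPM, and their ribosomal protein mRNAs to 46993 and 79100 CPM. The Malat1-high comparison barcodes measured 1917 and 2772 CPM of Neat1 and 13027 and 12994 CPM of respiratory chain mRNAs, with median mitochondrial shares of 7.58% and 9.23%. Of the latter, the HKO set held 1 barcode with 94.9% of all Igkc (immunoglobulin kappa) UMIs of the HKO comparison barcodes.

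The share of UMIs from genes spanning at least 100 kb gave a measure that used neither Malat1 nor Neat1. It was computed for each barcode over 2797 such genes, leaving out the genes of the rule. Malat1-high members had a median long-gene share of 30.9% in WT (range 10.5 to 35.8%) and 25.3% in HKO (range 11 to 36.7%). Malat1-high comparison barcodes had similar medians, 26.3% in WT and 27.0% in HKO, so this was not particular to the members. Over all members the median was only 6.66% in WT and 5.13% in HKO, below the comparison barcodes with 8.60% and 7.96%. It was lower still than in the commonest-depth droplets, with 8.74% and 11.5%. Members with under 1000 Malat1 CPM were at 4.99% and 4.34%, against 7.18% and 6.76% in comparison barcodes of the same Malat1 range. Barcodes above 25% mitochondrial RNA went the other way, with medians of 13.9% and 20.6%.

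**Figure D2:**
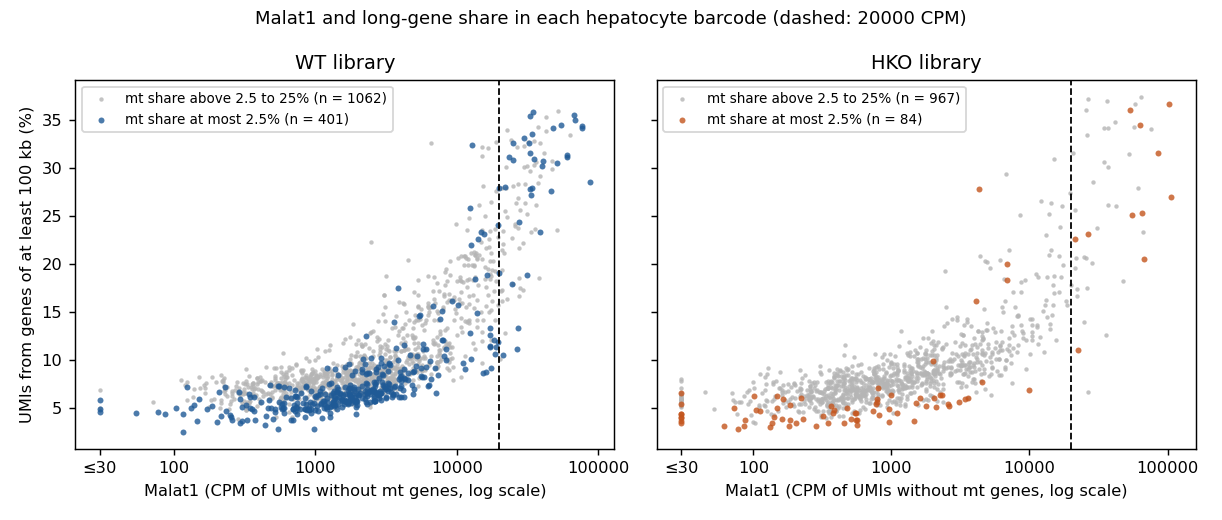
Each point is 1 hepatocyte barcode; the horizontal axis gives Malat1 in CPM on a log scale, with values of 30 or less drawn at 30, and the vertical axis the percentage of UMIs from genes of at least 100 kb. Coloured points are the members and grey points the comparison barcodes; the dashed line marks 20000 CPM, right of which lie 35 WT and 11 HKO members with median long-gene shares of 30.9% and 25.3%, while most members lie at the lower edge of the cloud.

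By these measures the members were not uniform. Those with high Malat1, 8.73% in WT and 13.1% in HKO, had in sum more Neat1 and in median more long-gene UMIs than the others, although their long-gene shares went down to 10.5% and 11%. With the Malat1-high barcodes left out of both classes, the Neat1 ratio was 0.586 in WT and 0.336 in HKO. The Malat1 ratio was then 0.734 and 0.426, which is no separate evidence because the barcodes left out were chosen by Malat1.

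The levels also moved within the members. At a mitochondrial share of 0.5% or less, 22 WT and 19 HKO barcodes gave 47810 and 69192 CPM of nuclear respiratory chain mRNAs. Between 1.5 and 2.5%, 139 and 30 barcodes gave 34511 and 43475 CPM, close to the 37617 and 43483 CPM of barcodes between 2.5 and 5%. Malat1 was at 258 CPM and Neat1 at 25 CPM in the lowest HKO bin, and at 7010 and 285 CPM in the lowest WT bin. Malat1 did not follow the mitochondrial share in order, and the 3 lowest HKO bins held only 19, 17 and 18 barcodes.

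**Figure D3:**
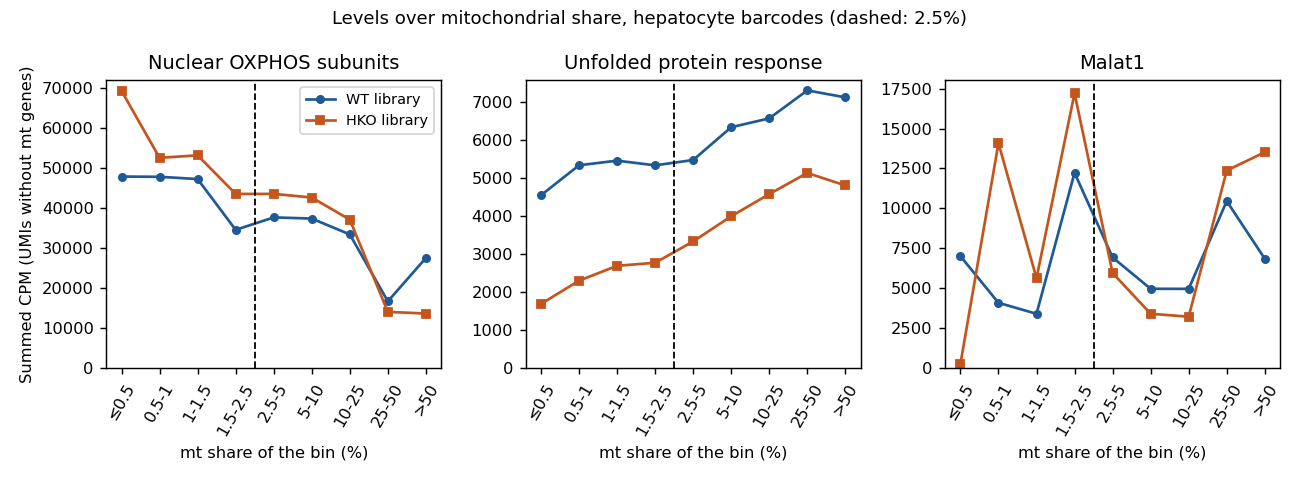
Summed CPM of nuclear OXPHOS subunits, unfolded protein response genes and Malat1 (vertical axes, from 0) in hepatocyte barcodes binned by mitochondrial share (horizontal axis, percent), for WT and HKO; members lie left of the dashed line. The OXPHOS sum is highest in the lowest bins, 47810 CPM in WT and 69192 in HKO, while the unfolded protein response sum is lowest there, 4555 and 1691 CPM.

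The members were next compared across the transcriptome. Of 6915 genes with a mean of at least 10 CPM in both libraries, 1 (0.0145%) was at least 2-fold higher in members of both libraries and 1 (0.0145%) at least 2-fold lower. In single libraries, 8 genes (0.116%) were past 2-fold higher and 10 (0.145%) lower in WT, and 79 (1.14%) higher and 350 (5.06%) lower in HKO. The gene lower in both was Slc10a1 (ENSMUSG00000021135, chr12:80953183-80968705, minus strand), the sodium-dependent bile acid importer of the hepatocyte membrane, at 246 CPM in WT members against 520 (ratio 0.472, 0.451 to 0.495) and 289 against 587 in HKO (ratio 0.492, 0.430 to 0.561). In the commonest-depth droplets Slc10a1 measured 238 CPM in WT and 221 CPM in HKO, so its member level was not below those droplets. The gene higher in both was Cd52, a lymphocyte surface antigen named here after its values were seen, at 18.3 CPM against 6.32 in WT and 15 against 6.63 in HKO. It passed the filter of 10 CPM only through the members, where it is high, so its call is no finding. Its HKO value rested on 12 UMIs, and without the barcode that held most of them the ratio was 0.802. The median log2 ratio over all 6915 genes was -0.17 in WT and -0.13 in HKO. Each of these calls was lost in 6 of the 9 alternatives computed at 2-fold. Across the settings tried, 0 to 30 genes were past 2-fold higher and 0 to 34 lower.

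A limit of 1.25-fold in both libraries, added after the values were seen, took in 494 genes (7.14%) that were higher and 1079 (15.6%) that were lower in members. These percentages are the background for the list counts that follow, all of them at this limit. The split depended on the scale, because the members have fewer mitochondrial UMIs to leave out. With these UMIs kept in the denominator, 912 genes were higher and 302 lower among 6660, and the median log2 ratio of all genes was 0.01 in WT and 0.06 in HKO. List medians are therefore best read against the median of all genes. On that scale the WT medians of the lysosomal, cytochrome P450, complex II, periportal and cytosolic ribosomal protein lists were 0.07, 0.02, 0.17, -0.01 and 0.17. At 2-fold, Slc10a1 was the 1 list member to pass in both libraries. The log2 ratios of the 2 libraries correlated across genes with a Pearson r of 0.40 and a Spearman rho of 0.40 over 6915 genes, and 0.56 and 0.53 over the 2517 genes with at least 50 CPM. Genes are not independent replicates, so no p is given.

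Of the nuclear-encoded subunits of oxidative phosphorylation, 42 of 79 analysed genes were at least 1.25-fold higher in members of both libraries and 0 lower, with a median log2 ratio of 0.39 in WT and 0.53 in HKO. Summed over 84 genes they measured 45096 CPM in WT members against 34769, and 55062 against 38521 in HKO. Complex I, the NADH dehydrogenase, had 26 of 37 higher with medians of 0.45 and 0.61, complex III, cytochrome c reductase, had 4 of 9, complex IV, cytochrome c oxidase, had 5 of 12, and complex V, ATP synthase, had 6 of 17. Complex II, succinate dehydrogenase, which has no mitochondrially encoded subunit, had 1 of 4 higher and 0 lower, with medians of -0.01 and -0.24.

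Among complex I genes, Ndufb7 measured 436 CPM in WT members against 215 (ratio 2.03, 1.94 to 2.12) and 481 against 247 in HKO (ratio 1.95, 1.75 to 2.17). Ndufs7, an iron-sulphur subunit, had ratios of 1.88 and 1.99, and Ndufa5 of 1.69 and 1.88. Not all moved alike, since Ndufa10 had ratios of 0.872 and 0.862. Without the barcode that held most of its UMIs in each class, the Ndufb7 ratio was 2.05 in WT and 1.90 in HKO.

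Mitochondrial ribosomal proteins, which translate the mitochondrial mRNAs and are themselves nuclear-encoded, had 29 of 77 genes higher and 0 lower, with medians of 0.26 and 0.57. Mrpl12 measured 248 CPM against 130 in WT (ratio 1.90, 1.80 to 2.02) and 236 against 126 in HKO (ratio 1.88, 1.61 to 2.19). Proteasome subunits, the core of cytosolic protein degradation, had 15 of 42 higher and 1 lower, with medians of 0.28 and 0.37. Psmb5, a catalytic subunit, had ratios of 1.91 (1.77 to 2.05) and 2.42 (2.01 to 2.90). Glutathione transferases, which conjugate xenobiotics, had 6 of 19 higher and medians of 0.32 and 0.16. The proteasome and transferase lists, and the transporter, carrier, ER translocation, lysosomal and P450 lists below, were drawn up after values were seen.

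Other mitochondrial lists gave mixed values. The 19 genes of fatty acid oxidation had 4 higher and 1 lower, with medians of 0.01 and 0.05, above those of all genes. Mitochondrial chaperones and proteases had 2 of 11 higher and 3 lower, with medians of 0.08 and -0.35. Mitochondrial transcription and biogenesis genes had 0 of 11 higher and 3 lower, with medians of -0.25 and -0.38, dynamics and mitophagy genes 0 of 13 higher and 2 lower, and mitochondrial carriers of the Slc25 family 0 of 27 higher and 4 lower.

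Lists of the secretory pathway and of membranes had low medians in HKO, between -0.92 and -0.36. In WT secreted plasma proteins lay above the median of all genes, at 0.13, and the other 5 lists between -0.24 and -0.07. With mitochondrial UMIs in the denominator these 5 lay between -0.07 and 0.07 and secreted plasma proteins at 0.31. The unfolded protein response list, the chaperones and sensors of the endoplasmic reticulum (ER), had 7 of 19 genes at least 1.25-fold lower in both libraries and 0 higher, with medians of -0.22 in WT and -0.92 in HKO. In HKO 0 of the 19 log2 ratios were above 0, and in WT 5 were, with a median near that of all genes. Hspa5, the ER chaperone BiP, measured 673 CPM in WT members against 902 (ratio 0.746, 0.725 to 0.768) and 216 against 533 in HKO (ratio 0.405, 0.347 to 0.472). Hsp90b1, another ER chaperone, had ratios of 0.695 and 0.527. In the commonest-depth droplets this list summed to 5717 CPM in WT and 3494 in HKO, above the 5314 and 2332 CPM of the members.

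Plasma membrane and organelle transporters had 0 of 96 higher and 32 lower, with medians of -0.24 and -0.55, among them Slc10a1 and Slc2a2, the hepatic glucose transporter, at ratios of 0.595 (0.571 to 0.621) and 0.440 (0.373 to 0.516). ER translocation and glycosylation genes had 8 of 29 lower and 1 higher, with medians of -0.21 and -0.54. Lysosomal genes, with a share near the background, had 5 of 24 lower and 1 higher, and the medians differed widely, -0.07 and -0.62. Cytochrome P450 enzymes, which sit in the ER membrane, also had a share near the background, with 7 of 40 lower and 0 higher, with medians of -0.16 and -0.66. Secreted plasma proteins had 2 of 26 higher and 3 lower, with medians of 0.13 and -0.36, and abundant cytosolic enzymes 3 of 25 higher and 1 lower, with medians of 0.07 and 0.04.

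**Figure D4:**
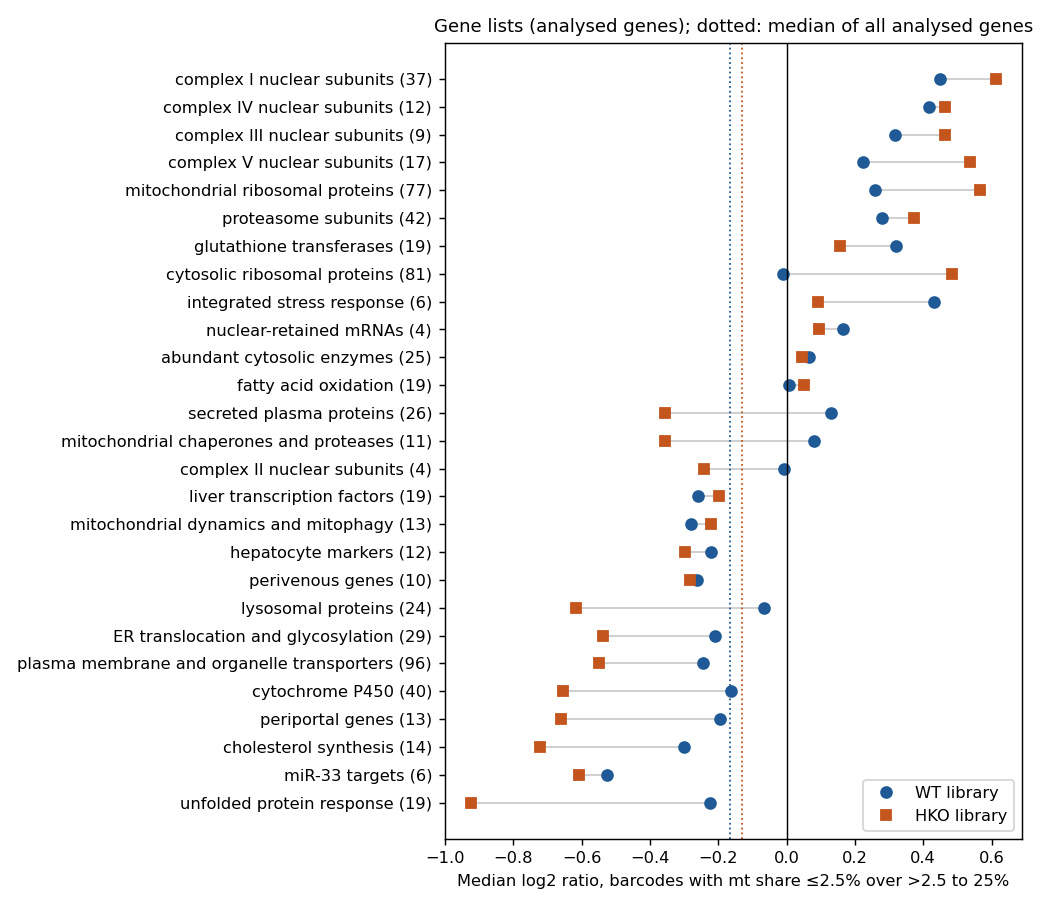
Median log2 ratio of members over comparison barcodes (horizontal axis) for selected gene lists, with the number of analysed genes in brackets, for the WT library (circles) and the HKO library (squares); dotted lines mark the median of all genes, -0.17 and -0.13. Complex I lies at 0.45 and 0.61, and the unfolded protein response at -0.22 and -0.92.

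Cytosolic ribosomal proteins differed between the libraries, less so in barcodes under 10000 UMIs. The 84 genes summed to 49545 CPM in WT members against 49787, and to 83840 against 60793 in HKO. The medians over 81 genes were -0.01 and 0.48, with 40 and 80 of 81 above 0. In barcodes under 10000 UMIs the medians were 0.31 and 0.57, and with barcodes weighted equally 0.17 and 0.49. Gm42418, which overlaps ribosomal RNA sequence and often collects reads from it, had a ratio of 1.46 in WT and 1.63 in HKO, with 5500 against 3773 CPM and 3732 against 2283 CPM. Under 10000 UMIs the ratios were 1.03 and 1.52, and at 10000 or more 1.71 and 1.12. In the commonest-depth droplets the 3 genes that overlap ribosomal RNA summed to 46423 and 96447 CPM, above the 5833 and 3893 CPM of the pooled members. Shallow members held more, with 19056 CPM of Gm42418 alone in WT members under 10000 UMIs and 3623 CPM in deeper ones. In HKO members these were 5021 and 2313 CPM. The WT median log2 ratio of the 3 genes was 0.54 and turned to -0.14 against comparison barcodes up to 10%.

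Stress genes gave mixed values. The integrated stress response had 2 of 6 analysed genes higher and 0 lower, with medians of 0.43 and 0.09. In barcodes under 10000 UMIs the WT median turned to -0.19. Fgf21, a stress hormone of the liver, had ratios of 1.55 (1.33 to 1.81) and 1.41 (0.712 to 2.56), and Ddit3, which encodes CHOP, 1.32 (1.11 to 1.56) and 1.58 (0.932 to 2.55). Gdf15, a stress-induced cytokine, measured 407 against 296 CPM in WT and 122 against 104 CPM in HKO. Immediate early genes, which rise during tissue dissociation, had 0 of 13 higher and 3 lower, with medians of -0.17 and -0.36. The p53 and cell death list had 0 of 9 higher and 3 lower.

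Genes of liver zonation and identity were mostly near or below the median of all genes. Perivenous genes had 0 of 10 higher and 1 lower, with medians of -0.26 and -0.28 that depended on the setting. The HKO perivenous median was 0.14 at 10000 or more UMIs and -1.10 below that, and the WT median was 0.11 with none of the 15 markers. Periportal genes had 0 of 13 higher and 4 lower, with medians of -0.20 and -0.66. Of the liver transcription factors, 1 of 19 was higher and 5 were lower, with medians of -0.26 and -0.20. Nr1i3, the xenobiotic receptor CAR, was the higher one at ratios of 1.69 and 1.55, while Prox1 had ratios of 0.602 and 0.530 and Nfib 0.626 and 0.662. The list of mRNAs known to be held in the nucleus of liver cells had medians of 0.17 in WT and 0.096 in HKO, with 0 higher and 0 lower. Its median turned to -0.35 in WT and -0.29 in HKO in barcodes under 10000 UMIs, and in HKO to -0.15 without Malat1-high barcodes and -0.064 with none of the 15 markers.

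The ratios followed gene length, which the rule did not use. Genes spanning under 5 kb had a median log2 ratio of 0.20 in WT and 0.34 in HKO over 747 genes, of which 26.2% were at least 1.25-fold higher in both libraries and 4.42% lower. Genes of at least 100 kb had medians of -0.35 and -0.17 over 1047 genes, of which 0.287% were higher and 22.7% lower. In HKO the order was not strict, since genes of 50 to 100 kb were lower still, at -0.27. The medians of genes of at least 50 kb and of genes under 10 kb differed by -0.47 and -0.42, and without the Malat1-high barcodes by -0.66 and -1.03. Against comparison barcodes up to 10% mitochondrial RNA they differed less, by -0.35 and -0.18. Exonic length gave the same order, from medians of 0.31 and 0.50 for the 205 genes under 1000 bases to -0.34 and -0.25 for the 1459 genes of 8000 bases or more. Genes with at least 20 exons had medians of -0.32 and -0.26, and genes with a GC content of at least 54% had 0.15 and 0.00 against -0.36 and -0.24 below 42%. Genes spanning under 10 kb made up 22.9% of all genes analysed, 69.6% of the nuclear oxidative phosphorylation list, 68.8% of the mitochondrial ribosomal proteins, 42.9% of the proteasome subunits and 11.5% of the transporters. They also made up 76.9% of the immediate early genes, of which 0 were higher. How far length accounts for the list medians was not tested.

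**Figure D5:**
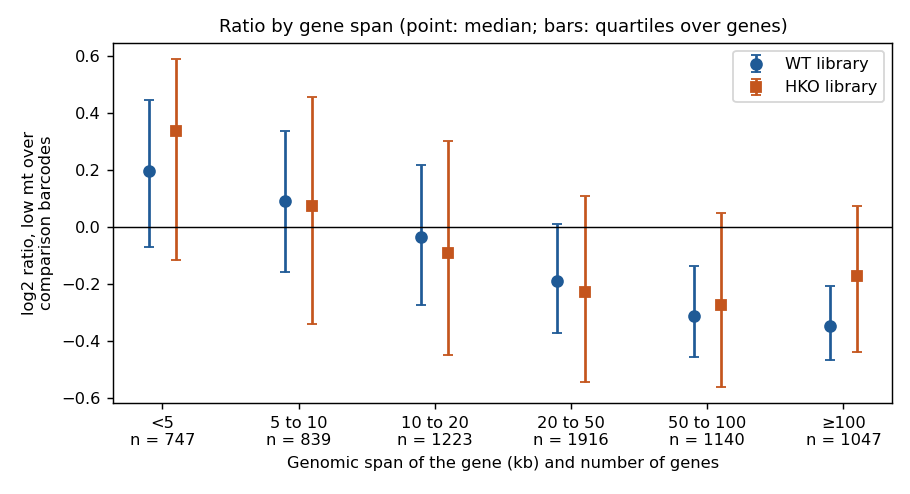
Log2 ratio of members over comparison barcodes (vertical axis) for genes grouped by genomic span in kb (horizontal axis, with the number of genes); points are medians and bars run from the lower to the upper quartile over genes. Medians are highest below 5 kb, 0.20 in WT and 0.34 in HKO, and lowest at 100 kb or more in WT, -0.35, and at 50 to 100 kb in HKO, -0.27.

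The profile of the members over 6915 genes was set against other classes of barcodes. The Pearson r of log2 CPM across genes was 0.977 against the comparison barcodes in WT and 0.950 in HKO. Against the commonest-depth droplets it was 0.978 and 0.930, and against barcodes above 25% mitochondrial RNA 0.882 and 0.734. The median absolute log2 difference of WT members was smaller to the commonest-depth droplets, 0.21, than to the comparison barcodes, 0.28, and in HKO it was 0.40 to those droplets and 0.36 to the comparison barcodes. To barcodes above 25% mitochondrial RNA it was 0.58 and 0.95. These values are descriptions across genes of single libraries.

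Of 6 analysed targets of miR-33, 4 were at least 1.25-fold lower in members of both libraries, beside 15.6% of all genes. A further 2 listed targets were too low to be analysed, Prkaa1 with 8.67 against 8.79 CPM in WT and 8.75 against 10.8 in HKO, and Abcg1 at about 1 CPM. Abca1, the cholesterol efflux transporter, measured 148 CPM in WT members against 216 (ratio 0.684, 0.642 to 0.727) and 119 against 246 in HKO (ratio 0.483, 0.390 to 0.593). Cpt1a, which admits fatty acids to mitochondria, had ratios of 0.707 (0.669 to 0.747) and 0.605 (0.519 to 0.701). Crot, the peroxisomal carnitine octanoyltransferase, had ratios of 0.775 and 0.804.

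The contrast of HKO over WT was partly different within members. Abca1 had an HKO over WT ratio of 0.803 (0.645 to 0.990) in members and 1.14 in comparison barcodes, and Cpt1a of 1.18 (1.01 to 1.37) and 1.38. Ppargc1a, a coactivator of mitochondrial biogenesis, had ratios of 1.56 (1.03 to 2.29) and 1.23, and Cyp7a1, the first enzyme of bile acid synthesis, 1.57 (0.928 to 2.51) and 3.41. Crot had ratios of 1.06 and 1.03, and Hadhb, a subunit of the trifunctional protein, 0.836 (0.710 to 0.978) and 1.06. Over the 6 targets analysed the median log2 ratio of HKO over WT was 0.16 in members and 0.24 in comparison barcodes. With members up to 1.5% mitochondrial RNA the Cpt1a ratio in members turned to 0.895. Srebf1 and Fasn were lower in HKO in both classes. Srebf1, a transcription factor that drives fatty acid synthesis, measured 176 CPM in WT members and 26.2 CPM in HKO members (ratio 0.149, 0.0922 to 0.229), and the ratio was 0.246 in comparison barcodes. Fasn, fatty acid synthase, had ratios of 0.218 (0.133 to 0.339) and 0.288. The Fasn ratio in members moved to 0.0880 under 10000 UMIs and 0.364 at 10000 or more, and the Srebf1 ratio to 0.0939 without Malat1-high barcodes. Scd1, the stearoyl-CoA desaturase, had a ratio of 0.911 (0.878 to 0.944) in members but 1.89 in comparison barcodes, and turned to 1.07 in members under 10000 UMIs. The commonest-depth droplets showed the Srebf1 and Fasn contrast too, with 140 CPM of Srebf1 in WT and 39.9 in HKO, and 97.9 and 25.6 CPM of Fasn. There Abca1 measured 151 CPM in WT and 214 CPM in HKO, Cpt1a 202 and 283, and Ppargc1a 23.5 and 37.0. Cyp7a1 measured 19.7 and 54.9 CPM, and Scd1 4730 and 8502. Crot was lower in HKO droplets, with 1377 and 1068 CPM, as was Hadhb, with 309 and 255.

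Hspa5 was 0.321 as high in HKO members as in WT members (0.274 to 0.374), and 0.591 as high in comparison barcodes. In the commonest-depth droplets it measured 696 CPM in WT and 409 CPM in HKO. Over 2507 genes analysed, 64 (2.55%) had an HKO over WT ratio of 2 or more in members and 134 (5.35%) a ratio of 0.5 or less, against 7 (0.279%) and 26 (1.04%) in comparison barcodes. HKO members gave 800051 UMIs without mitochondrial genes in all, and WT members 8648787, so the HKO values are the less precise. Members of the 2 libraries also differed in depth, in the share of Malat1-high barcodes and in ribosomal protein mRNAs, as given above. The part of these differences in the contrast was not tested.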

How the data were processed

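Liver cells of WT and HKO mice were captured with a poly(A)-primed droplet kit and sequenced, 1 library per genotype, each a pool of 3 livers. The deposited files hold UMI counts per gene and barcode that the authors made with Cell Ranger (7.1.0 in the file header) on mm10. Whether introns were counted is not given in the sources used here. The submitters' notes also name R 3.0 and Seurat 3.

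Barcodes were chosen by the stated rule with Python 3.11.15, numpy 2.4.6, scipy 1.17.1 and pandas 2.3.3, and figures drawn with matplotlib 3.10.9. The rule and gene lists were chosen with earlier results of these data known. UMIs were summed over the barcodes of a class and divided by those of genes other than the 13 mitochondrial ones. Ratios carry exact intervals conditional on the summed count. The simulated counts used to test them followed the counting model of the intervals. They held no clumping of UMIs in single barcodes, so the test could not show its effect. A ratio against 0 UMIs was set against 3 UMIs. Genes with a mean of at least 10 CPM over both classes in each library were analysed, without the genes of the rule. The lists at 1.25-fold, the Malat1 ranges and the long-gene share per barcode were added after values were seen. Genes were named if they were Neat1, Malat1, used by the rule, members of a list, or among the 12 highest or 12 lowest of those past 2-fold in both libraries with at least 50 CPM.

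Gene spans came from GENCODE M21 (GRCm38), which matched 32158 of 32285 gene IDs. The libraries held 130451427 and 52563185 UMIs over 30078 and 20000 barcodes, of which 23101 and 8129 lay within 25% of the commonest depths of 2564 and 788 UMIs. No doublet caller was run. Single genes of the nuclear-retained list are not reported here. Barcode letters of the WT library were not analysed here, so barcodes shared between libraries were not counted. Alternatives were a limit of 1.5%, at least 10000 UMIs, none of the 15 markers, comparison barcodes up to 10%, equal weight per barcode, a minimum of 1 CPM and mitochondrial UMIs in the denominator. Alternatives added after values were seen were 5000 to 10000 UMIs only, no Malat1-high barcodes, a limit of 1.25-fold and leaving out the top barcode of a gene or marker list.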

Additional observations from a re-analysis of the deposited data

Results flagged for a closer look

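In 5 results the members of 1 library lay above their comparison barcodes and those of the other library below, a difference that was not tested. The median log2 ratio of secreted plasma proteins was 0.13 in WT and -0.36 in HKO, that of mitochondrial chaperones and proteases 0.079 and -0.35, and that of cytosolic ribosomal proteins -0.0097 and 0.48. These WT signs were not stable. The secreted plasma protein median turned to -0.22 in barcodes under 10000 UMIs, -0.11 with none of the 15 markers and -0.068 with equal weights. The chaperone median turned to -0.041 with none of the 15 markers and -0.053 against comparison barcodes up to 10%. The ribosomal protein median was 0.31 under 10000 UMIs and 0.17 with equal weights, the same sign as in HKO. Hbb-bs, a globin of red cells, had a ratio of 13.1 in WT and 0.397 in HKO, and 5 WT members held 69.4% of its UMIs in that class. Igkc, an immunoglobulin chain of plasma cells, had a ratio of 2.79 in WT and 0.0270 in HKO, where 1 comparison barcode held 94.9% of its UMIs.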

How the results depend on the processing

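With members up to 1.5% mitochondrial RNA the share of members was 19.8% in WT and 5.29% in HKO, Neat1 ratios were 0.573 and 0.608, Malat1 ratios 0.796 (turned) and 1.74, genes 2-fold higher and lower in both libraries 6 and 16, span differences -0.74 and -0.75, OXPHOS medians 0.47 and 0.66, the WT ratio of median UMIs 1.31, and HKO over WT for Cpt1a 0.895 (turned). At 10000 or more UMIs the HKO share was 3.51%, its Malat1 ratio 2.75, its ratio of median UMIs 0.846, and the gene counts 5 and 4. With none of the 15 markers the WT share was 22.4%, Neat1 turned to 1.12 in WT, Malat1 was 1.27 and 2.83, the gene counts 4 and 7, the WT span difference -0.35 and its ratio of median UMIs 0.534. With comparison barcodes up to 10% the shares were 48.0% and 25%, Neat1 ratios 0.835 and 1.09, Malat1 ratios 1.00 and 2.29, genes higher 0, span differences -0.35 and -0.18, ratios of median UMIs 1.73 and 0.719, OXPHOS medians 0.25 and 0.36, the HKO unfolded protein response median -0.72, and the WT ribosomal RNA overlap median turned to -0.14. With barcodes weighted equally Neat1 was 0.900 and Malat1 1.2 in WT, the gene counts 4 and 3, and the WT span difference -0.39. A minimum of 1 CPM gave 30 and 23 genes. With mitochondrial UMIs in the denominator Neat1 was 0.904 and 1.03, Malat1 1.23 and 3.05, and the gene counts 17 and 0. In barcodes of 5000 to 10000 UMIs Neat1 turned to 1.03 in WT, HKO Malat1 was 2.17 and the gene counts were 9 and 34. The WT span difference there was -0.33 and the HKO OXPHOS median 0.63. WT medians turned for nuclear-retained mRNAs (-0.35) and the integrated stress response (-0.19), as did HKO over WT for Scd1 (1.07). The mitochondrial dynamics medians had no stable sign, at 0.010 and -0.013 in WT and -0.034 and 0.10 in HKO in 2 computations. Without Malat1-high barcodes Neat1 was 0.586 and 0.336, Malat1 turned to 0.734 and 0.426, the gene counts were 3 and 14, span differences -0.66 and -1.03, and the HKO OXPHOS median 0.67. At 1.25-fold the gene counts were 494 and 1079. Without the top barcode of the gene Neat1 was 0.760 and 0.799 and Malat1 1.02 and 2.11. Each cause was not tested. The OXPHOS and unfolded protein response medians kept their directions in both libraries under the 7 alternatives computed for them. No paired analysis was possible because each genotype had 1 library. Depth limits the HKO members most, with 84 barcodes.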

Other observations

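Some immune transcripts sat in single HKO members. S100a8 and S100a9, neutrophil calprotectin, had 105 and 153 UMIs among the 84 HKO members, all in 1 barcode, and 13 and 6 UMIs spread over 13 and 6 of the 401 WT members. Cxcl9, a chemokine induced by interferon, had 140 of its 144 UMIs in 1 HKO member. Hba-a1, an alpha globin, was detected in 53 of 401 WT members, of which 5 held 70.3% of its 6470 UMIs. These genes were named after their values were seen.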
